A study of Homo sapiens with 4 samples.

Results

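RNA of SW620 spheroids was compared with RNA of HCEC-1CT spheroids, with 1 library per line. SW620 is an established human line from a lymph node metastasis of a colorectal carcinoma. HCEC-1CT is an established line from non-cancerous human colon, made immortal with CDK4 and TERT, so the control also carries introduced genes. The other libraries are of HCT116 and DLD-1, lines from colorectal carcinomas, and they are used here only to show which differences from HCEC-1CT were seen in SW620 and not in them. The labels give all 4 lines as wild type epithelial cells, with no treatment. The medium was DMEM with 10% FBS, and culture lasted 7 days in low-attachment plates of 24 wells, where single cells cannot attach and gather into spheroids. Compact spheroids were picked under a microscope, and RNA was pooled from 2 plates into 1 library, so each value is a level in 1 pooled sample of 1 line, with no replicate and no test.

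Of the 58740 genes in the deposited table, 16095 reached 1 FPKM (fragments scaled to transcript length and library size) in SW620 or HCEC-1CT and are called measured here. Genes that reached it only in HCT116 or DLD-1 are left out, so medians of gene lists can favour SW620 over those lines. The depth read from the low values was about 29500000 fragments in HCEC-1CT and 28700000 in SW620, so 1 FPKM over 2 kb of transcript is 59.0 and 57.5 fragments. Genes are called higher or lower from 4-fold on, with 1 FPKM added to both values. By that rule 1665 measured genes (10.3%) were higher in SW620 and 1023 (6.36%) lower, of which 1398 and 870 encode proteins. These shares are the ones to set beside each count of list members below. A gene was counted for SW620 alone when HCT116 and DLD-1 both lay under 2-fold from HCEC-1CT, and 255 genes (1.58%) were higher and 57 (0.354%) lower in that way. The 3 cancer lines are set against 1 and the same HCEC-1CT library. Every series of 4 values below is in FPKM and in the order HCEC-1CT, HCT116, DLD-1 and SW620. The median log2 ratio of SW620 to HCEC-1CT over all measured genes was 0.29, and all ratios include it.

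In the colon, Wnt ligands bind Frizzled receptors and release beta-catenin, which with TCF/LEF factors keeps crypt cells dividing, and most colorectal carcinomas have this pathway switched on. Signals of the TGF-beta family run the other way: receptors phosphorylate SMAD proteins, which need the shared partner SMAD4 to act on genes, and SMAD4 lies on the long arm of chromosome 18, which is often lost in these tumours. Carcinoma cells that form epithelia hold keratins and E-cadherin, while fibroblasts hold vimentin, collagens and matrix proteases.

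**Figure D1:**
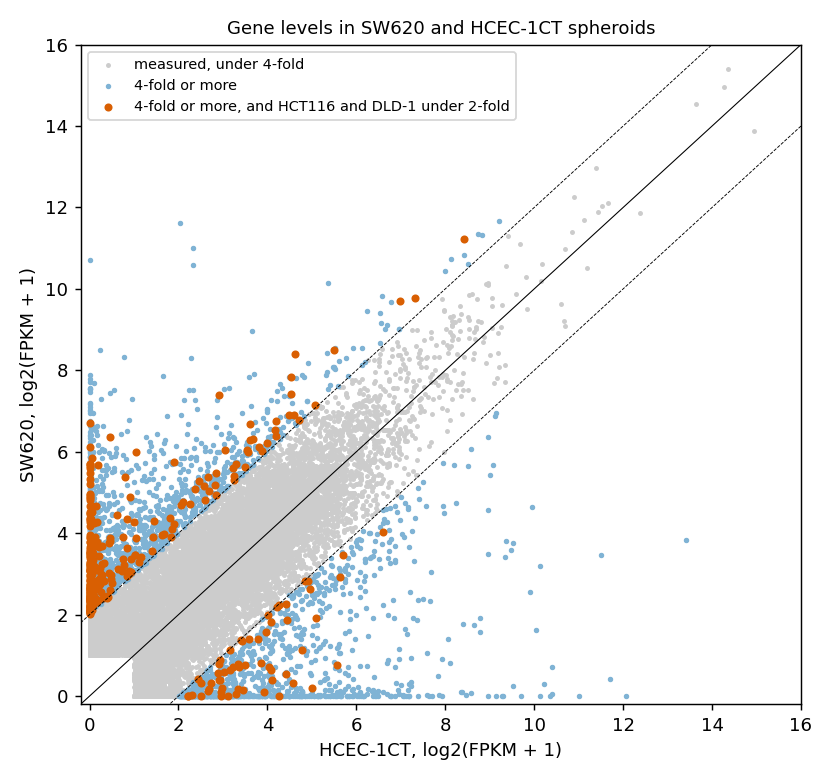
Each point is a measured gene, with log2(FPKM + 1) in HCEC-1CT on the x axis and in SW620 on the y axis; dashed lines mark 4-fold. The 312 orange genes are 4-fold or more apart while HCT116 and DLD-1 lie under 2-fold from HCEC-1CT, and most of the higher ones sit near 0 on the x axis.

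The genes furthest above HCEC-1CT were those of epithelium. KRT19, a keratin of simple epithelia, was listed at 0, 567, 1555 and 1664 FPKM. Its relatives KRT8 and KRT18, which pair with each other in filaments, stood at 3.10, 600.5, 1856 and 3122 and at 4.05, 194, 1043 and 1543 FPKM. All 5 simple keratins were higher in SW620, and its levels of KRT19, KRT8 and KRT18 were the highest of the 4 lines. EPCAM, a carcinoma adhesion molecule, was at 0, 144, 406 and 237 FPKM, and SPINT2, which inhibits membrane proteases, at 0, 126, 174 and 210.1. ITGB4, the integrin chain of hemidesmosomes, reached 0.179, 46.95, 92.1 and 362 FPKM, and S100A4, a calcium-binding protein linked to cell motility, 3.99, 183, 98.7 and 2051. The levels of ITGB4 and S100A4 in SW620 were far above those of both other cancer lines.

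The other genes with the largest ratios differed among the cancer lines. FOXQ1, a forkhead factor, was at 0.0788, 4.02, 53.01 and 207 FPKM, and SPNS2, an exporter of sphingosine 1-phosphate, at 0.721, 4.68, 52.6 and 323. GPX2, the glutathione peroxidase of the gut epithelium, stood at 0, 0.438, 1.81 and 189 FPKM, and the trefoil peptide TFF3 of goblet cells at 0, 0, 65.8 and 186. In each of these 4 genes SW620 was the highest line.

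HCEC-1CT carries the label of an epithelial cell, but several epithelial markers were at 0 in its library, namely KRT19, EPCAM, CDH1 and DSP. Others were present at low levels: 3 of 5 simple keratins and 9 of 44 junction genes reached 1 FPKM in HCEC-1CT, with sums of 8.87 and 64.6 FPKM, against 6397 and 1927 in SW620. Of 38 measured genes of epithelial junctions and polarity, 29 were higher in SW620 and 0 lower, with a median log2 ratio of 3.62 against 0.29 over all measured genes. The list's medians in HCT116 and DLD-1 were 4.15 and 4.97, so the shift was shared and was smallest in SW620. CDH1, which encodes E-cadherin, was at 0, 27.2, 189 and 129 FPKM, and DSP, the desmosomal linker desmoplakin, at 0, 48.4, 88.0 and 97.9. Some junction genes were low in SW620 beside the other cancer lines. MAL2, a membrane sorting protein, stood at 0, 84.9, 78.9 and 1.46 FPKM, and AP1M2, an adaptor for sorting to the basolateral side, at 0, 51.2, 57.2 and 1.07. CLDN4 and CLDN7, claudins of tight junctions, were at 0.146, 20.3, 284 and 6.93 and at 0.517, 45.6, 94.6 and 11.9 FPKM. These 4 genes were higher in HCT116 and DLD-1 than in SW620, while CLDN1 was highest in SW620, at 3.13, 0.581, 4.57 and 50.9 FPKM.

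Of 15 fibroblast and pericyte markers, 14 were at 1 FPKM or more in HCEC-1CT, and 13 of these 14 were lower in SW620 and 0 higher. Their summed level was 1192 FPKM in HCEC-1CT and 34.9 in SW620, and FAP, PDPN and COL1A2 were listed at 0 in SW620. In a bulk library, fewer cells of a type and less RNA per cell cannot be told apart. The leukocyte, endothelial and glial marker lists held 3 of 14, 2 of 11 and 4 of 10 measured genes. What part such cell identities had in the ratios was not tested.

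Secreted inflammatory and matrix-cutting products were the furthest below HCEC-1CT. PTGS2, the inducible enzyme of prostaglandin synthesis, was at 4262, 1.804, 5.41 and 0 FPKM, so it was listed at 0 in SW620. Of 29 measured cytokines and chemokines, 24 were lower and 2 higher, with a median of -5.75, against -6.73 in HCT116 and -5.58 in DLD-1. CXCL8, the neutrophil attractant interleukin 8, stood at 10944, 3.71, 2.32 and 13.3 FPKM, IL1B at 1193, 0, 0.283 and 0.231 and CSF3, the granulocyte growth factor, at 740.3, 0, 0 and 0.182. CXCL5 was at 3320.3, 0, 76.2 and 0.348 FPKM and IL6 at 1118, 0, 0 and 0. The 2 that were higher were CXCL16, at 0.317, 36.04, 9.68 and 23.1 FPKM, and CCL28, at 0.0769, 0.0505, 6.08 and 4.15. STC1, the secreted hormone stanniocalcin, was at 1360.4, 0.0807, 0.539 and 0.0357 FPKM, and FGF2, a mitogen of many mesenchymal cells, at 630.4, 4.64, 0.290 and 0.

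Among 41 measured proteases and inhibitors, 10 were higher and 15 lower, where all measured genes had 10.3% higher and 6.36% lower. The collagenase MMP1 stood at 829, 0.220, 0.130 and 0 FPKM and the stromelysin MMP3 at 1299.6, 0, 0 and 0. TFPI2, a serine protease inhibitor of the matrix, was at 2053, 0.0322, 0 and 0 FPKM, and PLAT, the tissue plasminogen activator, at 1347, 6.60, 0.200 and 0.654. Higher genes of the list were led by ADAM19, a membrane protease, at 1.41, 6.04, 0.387 and 37.95 FPKM, and TIMP3, a metalloproteinase inhibitor, at 0.00737, 3.58, 51.8 and 14.2. MMP7, known as matrilysin, was 1 of 2 genes of the list in the class of SW620 alone, with 0.0256, 0.762, 0 and 5.13 FPKM.

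Of 36 measured genes of the mesenchymal state, 21 were lower and 1, S100A4, higher. SW620 nonetheless held several of them at levels that the other cancer lines did not. TNC, the matrix glycoprotein tenascin C, was at 248.6, 0.0196, 0.0476 and 62.4 FPKM. The zinc finger repressors SNAI2 and ZEB1 were at 16.1, 0.501, 0.0176 and 9.47 and at 19.9, 0.878, 0.417 and 5.98 FPKM. LUM, the matrix proteoglycan lumican, was at 188, 0.0518, 0 and 24.5 FPKM and SPON2, a secreted matrix protein, at 131, 0.875, 0.239 and 36.8. In these 5 genes SW620 lay between HCEC-1CT and the other cancer lines. CAV1, the main protein of caveolae, and CALD1, caldesmon, lay under 2-fold from HCEC-1CT in SW620, at 18.7, 49.96, 3.90 and 28.5 and at 44.8, 25.4, 1.31 and 30.8 FPKM.

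**Figure D2:**
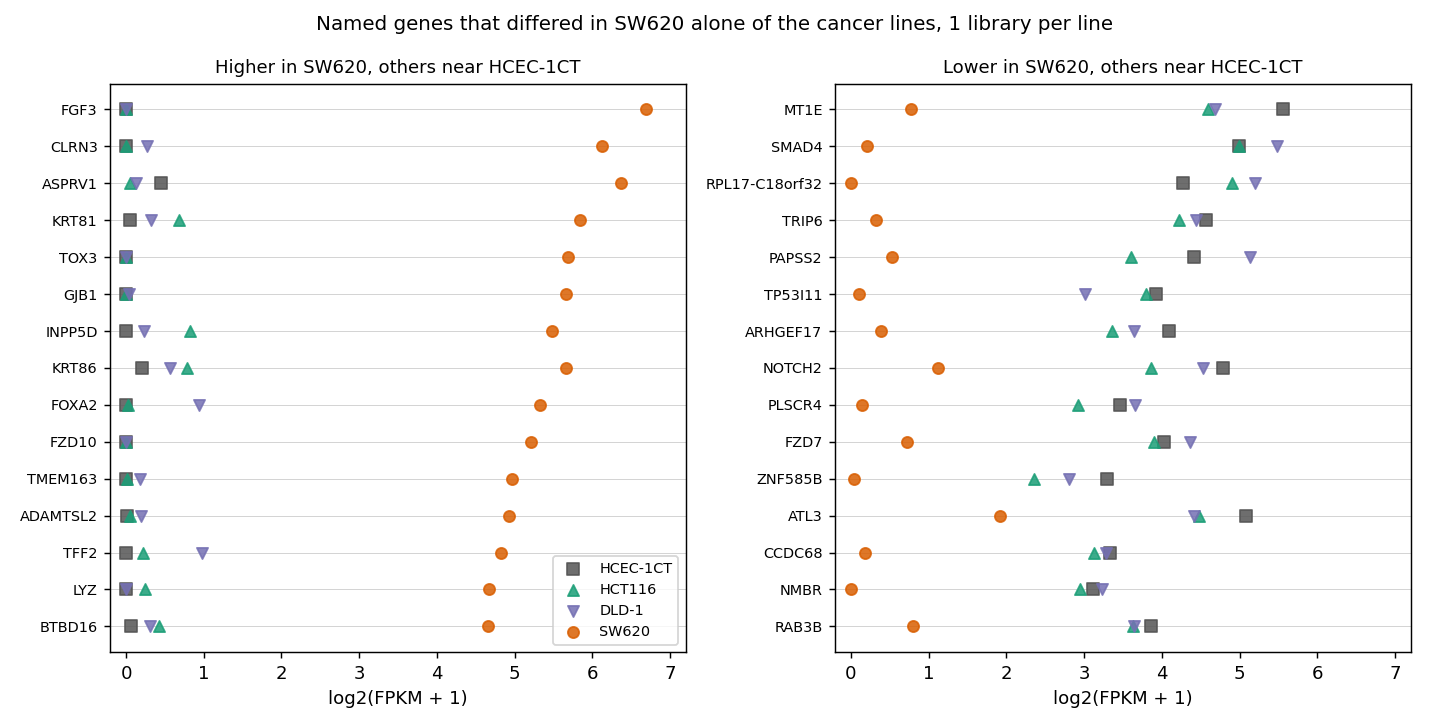
Level in log2(FPKM + 1) of the 15 protein-coding genes per direction with the largest ratio that were higher (left) or lower (right) in SW620 while HCT116 and DLD-1 lay under 2-fold from HCEC-1CT. Each marker is 1 library; the SW620 markers stand apart from the other 3 in every row, as the choice of genes requires.

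Most genes that were higher in SW620 alone were under 1 FPKM elsewhere. Of the 255, 177 were under 1 FPKM in all 3 other libraries and 27 were listed at 0 in all 3, while 119 reached 10 FPKM in SW620. Since the rule set these levels, they are a description. FGF3 (chr11:69809969-69819024 in the files' hg38 coordinates), a growth factor of the embryo, was listed at 0, 0, 0 and 102.7 FPKM. CLRN3, a membrane protein of the clarin family, was at 0, 0, 0.201 and 68.8 FPKM, and GJB1, the gap junction protein connexin 32, at 0, 0, 0.0225 and 49.5. TOX3, an HMG-box nuclear protein, stood at 0, 0, 0 and 50.7 FPKM. ASPRV1, an aspartic protease of the epidermis, was at 0.370, 0.0318, 0.0934 and 82.0 FPKM.

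A second group within the class are keratins of stratified epithelium and hair. KRT81 stood at 0.0350, 0.602, 0.247 and 56.3 FPKM, KRT86 at 0.149, 0.724, 0.481 and 49.7 and KRT17, a keratin of basal and injured epidermis, at 0, 0.141, 0.301 and 19.4. KRT81 and KRT86 are near-identical hair keratins, and the KRT81 gene lies within the span given for KRT86, so reads of the pair may have been split between them. Of 9 measured stratified and hair keratins, 6 were higher in SW620 and 3 were in the class. The list's median log2 ratio was 3.53 in SW620, 0.63 in HCT116 and 0.84 in DLD-1. All 9 were measured through SW620, since 0 of the 13 listed genes reached 1 FPKM in HCEC-1CT. The counts and medians therefore favour SW620 by the choice of genes. Over all 13 the sums were 0.238, 50.5, 75.9 and 252 FPKM. KRT80 led the list outside the class, at 0.0348, 9.62, 34.9 and 97.5 FPKM.

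Endodermal factors and secretory products were a further group. FOXA2, a pioneer factor of foregut and gut endoderm, was at 0, 0.0163, 0.917 and 39.0 FPKM. Of 18 measured intestinal transcription factors, 11 were higher and 2 lower, and 2, FOXA2 among them, were in the class. HNF4A, which controls differentiation of enterocytes, was higher in the other lines too, at 0, 2.63, 17.5 and 24.4 FPKM, and SOX9, a factor of the crypt base, stood at 0, 85.9, 91.1 and 137. TBX3, 1 of the 2 lower factors, was at 57.4, 6.13, 52.3 and 3.29 FPKM. CDX2, the intestinal homeobox factor, was at 0, 3.27, 70.8 and 6.04 FPKM, and CDX1 was listed at 0, 0, 0.652 and 0.

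TFF2, a trefoil peptide of gastric mucus, was at 0, 0.161, 0.966 and 27.4 FPKM, and LYZ, the lysozyme of Paneth cells and macrophages, at 0, 0.183, 0 and 24.5. Both are in the class. Of 11 measured goblet, Paneth and secretory genes, 7 were higher in SW620. The list's median was 3.38 against 0.21 in HCT116 and 1.23 in DLD-1. All 11 reached 1 FPKM in SW620 and 2 did in HCEC-1CT, so most were measured through SW620, which favours it in these medians. Over all 29 listed genes the sums were 12.1, 10.7, 351 and 331 FPKM, so SW620 was not above DLD-1 by that measure. Products of absorptive cells had 13 of 23 measured genes higher and 4 lower. The brush border genes VIL1 and USH1C stood at 0.0492, 0.0919, 8.06 and 47.5 and at 0, 8.68, 1.24 and 70.5 FPKM, and MUC13, a membrane mucin, at 0, 0.400, 24.6 and 127. CDHR2, the brush border protocadherin, and TM4SF5 were the 2 of that list in the class, at 0.0562, 0.353, 0.0462 and 5.71 and at 0, 0, 0.0432 and 4.50 FPKM. The 4 lower ones were DPP4, CA12, ANPEP and MUC12, and the peptidase DPP4 stood at 103.1, 9.02, 1.53 and 0.841 FPKM. SERPINA1, the liver-type inhibitor alpha-1-antitrypsin, reached 0.127, 4.10, 7.23 and 97.6 FPKM.

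SOX2 and TBXT, factors of stem cells and of early mesoderm, were in the class at 0, 0.0157, 0 and 11.3 and at 0, 0, 0.0176 and 11.7 FPKM. IGF2BP1, a fetal RNA-binding protein, was at 0.0286, 0.473, 0.0463 and 8.02 FPKM and CRABP1, which binds retinoic acid, at 0, 0, 0 and 6.05. These are low levels beside those of the keratins, but the other 3 libraries each stayed under 0.5 FPKM in all 4 genes.

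Several class genes are known from blood cells. INPP5D, the inositol phosphatase SHIP1, was at 0, 0.765, 0.179 and 43.6 FPKM. LAT, an adaptor of the T cell receptor, was at 0.893, 0.580, 0.542 and 28.9 FPKM, and SLAMF9, a receptor of myeloid cells, at 0.743, 0, 0 and 40.7. LGALS9, the lectin galectin 9, stood at 0.0782, 0.421, 0.348 and 18.1 FPKM. This group was put together after the values were seen. The 14 leukocyte markers summed to 17.4, 8.87, 2.14 and 42.7 FPKM. In SW620 LYZ and the lysosomal protein CD68, at 7.56, 4.65, 1.40 and 16.6 FPKM, made up most of the sum. CD14, a monocyte marker of the list, went the other way, at 9.40, 0.376, 0.409 and 0.101 FPKM. PTPRC, which encodes CD45, was at 0.00629, 0.0146, 0 and 0.129 FPKM and CD3D, a chain of the T cell receptor complex, at 0, 0, 0 and 0.523. CD3E, MS4A1 and NKG7 were listed at 0 in SW620. The part of such cells in these levels was not tested.

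Genes that were well expressed in every line formed a smaller set: 23 of the 255 had at least 10 FPKM in HCEC-1CT. SLC5A3, the inositol transporter, stood at 23.6, 21.2, 39.0 and 337 FPKM, and its overlapping neighbour MRPS6 at 22.2, 38.9, 28.3 and 170.4. DDIT4, a stress-induced inhibitor of the mTORC1 kinase, was at 159.6, 166, 209 and 874 FPKM. SLC1A5, a glutamine transporter, was at 44.0, 41.3, 66.3 and 364 FPKM. S100A6, another calcium-binding protein, was at 342, 483, 623 and 2398 FPKM. Here 3 libraries lay close together and SW620 was several times higher. Of 12 measured S100 genes 10 were higher in SW620 and 0 lower, with medians of 3.30 in SW620, 0.84 in HCT116 and 0.65 in DLD-1. All 12 reached 1 FPKM in SW620 and 8 did in HCEC-1CT. Over all 19 listed S100 genes the sums were 554, 944, 1430 and 5681 FPKM.

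**Figure D3:**
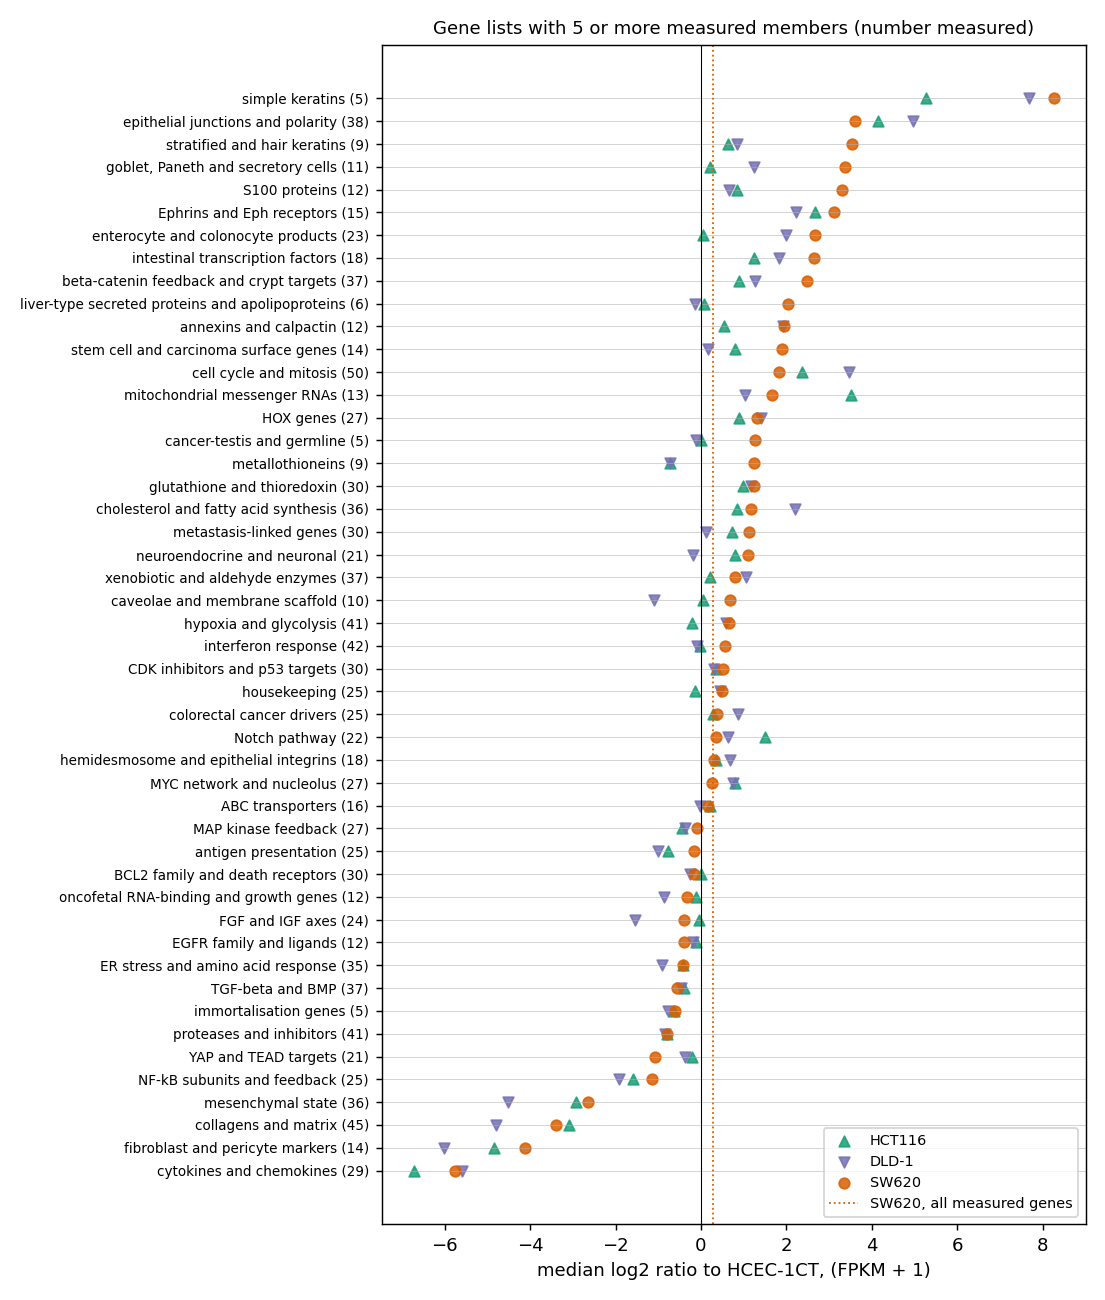
Median log2 ratio to HCEC-1CT, on the scale of FPKM plus 1, of each gene list with at least 5 measured members, 1 marker per cancer line; the number measured stands behind each name and the dotted line is the SW620 median over all measured genes. Simple keratins (8.26) are at the top of the SW620 order and cytokines and chemokines (-5.75) at the bottom. Medians of stratified keratins, S100 proteins and secretory cell genes are higher in SW620 than in both other lines. Members are measured by their level in SW620 or HCEC-1CT, which favours SW620 in lists that are low in HCEC-1CT.

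In the Wnt pathway, 26 of 37 measured feedback genes and crypt targets were higher in SW620 and 3 lower. The list's median was 2.49, against 0.88 in HCT116 and 1.27 in DLD-1. Of its members, 35 reached 1 FPKM in SW620 and 17 did in HCEC-1CT. Many were thus measured through SW620, which favours it in these medians. Summed over all 40 listed genes, the levels were 416, 800, 1321 and 1310 FPKM. By that measure SW620 was not above DLD-1. The list holds 5 of the genes higher in SW620 alone and 2 of those lower. NKD1, SP5 and NOTUM, feedback genes that are switched on by beta-catenin, stood at 0.0158, 1.57, 2.06 and 93.2, at 0, 0.726, 5.23 and 63.9 and at 0.631, 13.9, 0.243 and 86.4 FPKM. AXIN2, the scaffold most used as a readout of the pathway, was at 0.767, 8.16, 234 and 55.4 FPKM, so DLD-1 was the higher line there. LGR5, the stem cell receptor, was at 0, 0, 3.41 and 3.97 FPKM.

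The class members act at several steps of the pathway. PORCN, the enzyme that lipidates Wnt ligands for secretion, was at 6.47, 10.1, 3.11 and 166 FPKM. SFRP5 and DKK4, secreted inhibitors, were at 0.0185, 0.0531, 0.0233 and 21.9 and at 0, 0.0982, 0 and 10.9 FPKM, and APCDD1, a membrane inhibitor, at 0.791, 0, 1.74 and 11.4. SMOC2, a matrix protein of crypt stem cells, was at 0, 0.0376, 0 and 3.54 FPKM. The receptors went in opposite directions: FZD10 was listed at 0, 0, 0 and 36.1 FPKM and FZD7 at 15.3, 13.9, 19.6 and 0.649. WLS, which escorts Wnt ligands to the surface, was lower in SW620, at 83.3, 38.6, 46.4 and 6.89 FPKM, and the coreceptor LRP5 was higher, at 15.9, 21.8, 44.7 and 154.

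CD44, a hyaluronan receptor and crypt target, was the other class member that was lower, at 96.4, 179, 113 and 15.3 FPKM. Its levels in HCT116 and DLD-1 were at or above that of HCEC-1CT. TNFRSF19, the third lower gene of the list, stood at 26.2, 1.39, 12.8 and 1.87 FPKM and is lower in HCT116 as well.

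The promoters were searched for CTTTGAT, the core of a TCF/LEF motif, on both strands in 300 bases, from 250 before to 50 after the start that RefSeq gives (GRCh38.p14). A promoter was held for 79 of the 162 protein-coding genes higher in SW620 alone, and 5 of these (6.33%) had the letters. They were found in 91 of 6995 promoters of measured protein-coding genes (1.30%) and in 597 of all 22114 (2.70%). For the genes lower in SW620 alone it was 2 of 23 (8.70%), so the share was not particular to the higher genes. TGTTTAC, a FOXA motif, was in 2 of the 79, which is 2.53%, and in 2.07% of the promoters of measured protein-coding genes. The letters of an HNF4 motif, CAAAGTCCA, were in 0 of the 79. Only 15 of the 6995 promoters of measured protein-coding genes (0.214%) had them, so 79 promoters are too few to show a lack. These matches are a description of sequence and not of binding. FGF18, a growth factor, was at 0.220, 1.17, 0.330 and 6.79 FPKM and GFRA3, a coreceptor for the neurotrophic factor artemin, at 0, 0.0194, 0 and 19.1. Both are class members, and their 250 bases before the start are shown with the TCF/LEF letters in capitals, FGF18 from the plus strand (chr5:171419397-171419646) and GFRA3 from the minus strand (chr5:138274622-138274871).
FGF18: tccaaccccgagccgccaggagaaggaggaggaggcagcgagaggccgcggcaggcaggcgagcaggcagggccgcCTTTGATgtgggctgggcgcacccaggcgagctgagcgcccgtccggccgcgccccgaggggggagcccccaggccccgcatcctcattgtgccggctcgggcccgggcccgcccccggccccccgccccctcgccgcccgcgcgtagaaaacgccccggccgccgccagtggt
GFRA3: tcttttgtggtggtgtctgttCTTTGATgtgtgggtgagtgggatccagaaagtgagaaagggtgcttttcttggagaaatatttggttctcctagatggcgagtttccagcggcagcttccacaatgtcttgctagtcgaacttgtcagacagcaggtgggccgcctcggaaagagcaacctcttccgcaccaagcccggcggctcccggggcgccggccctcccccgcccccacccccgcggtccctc

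Among the 57 genes lower in SW620 alone, 48 encode proteins, 37 were under 1 FPKM in SW620 and 28 had at least 10 FPKM in HCEC-1CT. SMAD4 (chr18, the partner of the other SMAD proteins) was at 30.8, 30.9, 43.8 and 0.156 FPKM, a log2 ratio of -4.78. Of the SMAD4 transcripts that were well measured in any line, the highest in SW620 was at 0.0424 FPKM. The partners were present: SMAD2, also on chromosome 18, was at 10.6, 12.7, 28.4 and 7.06 FPKM and SMAD3 at 25.3, 57.8, 13.8 and 28.4. Of 37 measured genes of the TGF-beta and BMP pathways, 5 were higher and 11 lower, with a median of -0.55 against 0.29 over all measured genes. The same list had medians of -0.39 in HCT116 and -0.46 in DLD-1.

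Within that pathway list the ligands and antagonists BMP2, INHBA, GREM1 and FST were lower in all 3 cancer lines. BMP2 stood at 324, 0, 8.73 and 0.0676 FPKM and INHBA, a chain of activin, at 143, 0.00652, 0 and 0. BMP4, a ligand, and BAMBI, a decoy receptor, were higher, at 0.261, 52.7, 131 and 64.1 and at 2.36, 19.1, 7.15 and 118 FPKM. The ID genes, repressors that BMP signals switch on, split. ID1 was at 19.2, 209, 415 and 190.1 FPKM, above HCEC-1CT in every cancer line. ID3 was at 27.5, 78.5, 164 and 1.28 FPKM, so it was lower in SW620 and higher in HCT116 and DLD-1.

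NOTCH2, a receptor, was in the class at 26.5, 13.5, 22.1 and 1.18 FPKM, and NOTCH3 was at 4.31, 32.3, 15.3 and 0.257. Of 22 measured Notch genes 6 were higher and 3 lower, against 10.3% and 6.36% of all measured genes. The third lower one was the target HEY1, at 5.14, 0.453, 0.0373 and 0.510 FPKM. JAG1, a ligand, stood at 2.30, 17.3, 27.8 and 49.2 FPKM and HES1, a target, at 4.35, 34.9, 41.4 and 28.2. MFNG, which adds sugars to the receptors, was at 0, 2.40, 0.538 and 31.7 FPKM.

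MT1E, a metal-binding metallothionein, was at 46.0, 23.1, 24.7 and 0.703 FPKM, while its relative MT1X was higher in SW620, at 68.7, 41.5, 15.9 and 281. The metallothionein list had 2 of 9 measured genes higher and 3 lower, against 10.3% and 6.36% of all measured genes. The metallothioneins among them are near-identical in sequence. TRIP6, a LIM domain protein of focal adhesions, was at 22.8, 17.6, 20.6 and 0.254 FPKM. PAPSS2, which makes the sulfate donor of cells, was at 20.4, 11.2, 34.2 and 0.445 FPKM, and ATL3, a GTPase that shapes the endoplasmic reticulum, at 32.9, 21.3, 20.3 and 2.78. RAB3B, a small GTPase of secretory vesicles, was at 13.6, 11.4, 11.5 and 0.743 FPKM, and NMBR, the neuromedin B receptor, at 7.66, 6.70, 8.40 and 0. MXI1, a partner of MAX that opposes MYC, was at 50.7, 38.5, 40.2 and 10.1 FPKM, while MYC was at 8.26, 80.8, 17.5 and 57.8. TP53I11, ARHGEF17, PLSCR4, ZNF585B and CCDC68 complete the 15 with the largest ratios, with 8.80 to 16.1 FPKM in HCEC-1CT and 0.0280 to 0.308 in SW620. RPL17-C18orf32, a readthrough transcript that shares exons with the ribosomal gene RPL17, was listed at 18.3, 29.01, 35.7 and 0 FPKM, and its reads cannot be told apart from those of RPL17.

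Class membership depends on scaling for some of these genes. After scaling each library by the median ratio, 227 of the 255 higher and 33 of the 57 lower genes stayed in the class, and on the TPM scale 194 and 30. With a pseudocount of 0.1 FPKM 113 and 47 stayed, and with one of 5 FPKM 63 and 9, so most of the higher members depend on the pseudocount. After median-ratio scaling and on the TPM scale, MT1E, NOTCH2, PAPSS2, ATL3, TP53I11, ARHGEF17 and ZNF585B of the 15 named lower genes left the class. HCT116 or DLD-1 then lay over 2-fold below HCEC-1CT in them. Among the other genes named here, PORCN, VOPP1 and FKBP9P1 left the higher class under both scalings, and POLI, EFNA5 and NUTM2A-AS1 the lower one. On the TPM scale alone FOXA2, INPP5D, TFF2, MMP7, SLAMF9, MX1, APCDD1, FGF18, LINC02178 and AC007608.4 also left the higher class. With a pseudocount of 0.1 FPKM, 4 of the 15 named higher genes stayed.

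**Figure D4:**
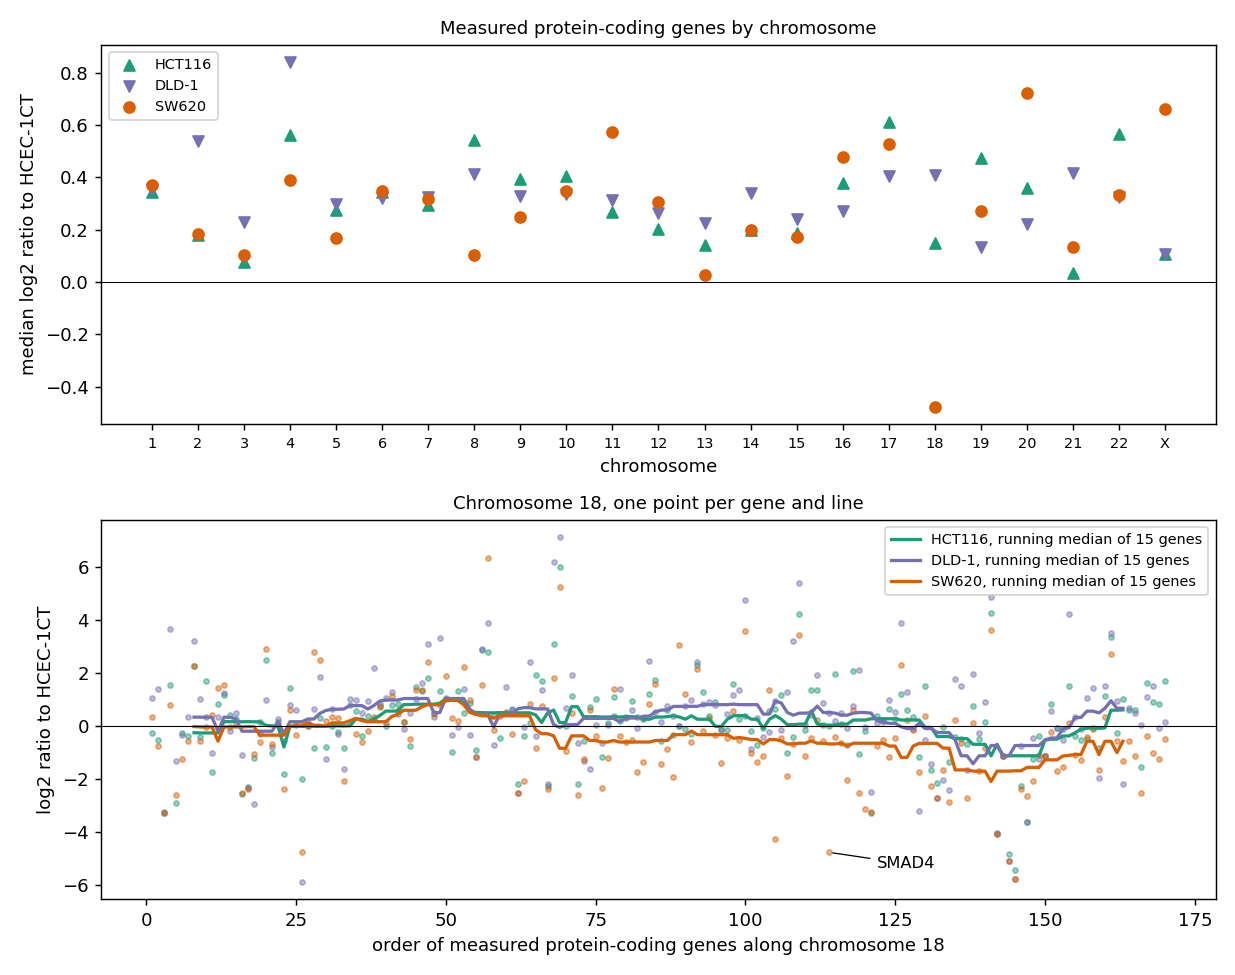
Top, median log2 ratio to HCEC-1CT of the measured protein-coding genes of each chromosome in the 3 cancer lines; bottom, the ratio of each measured protein-coding gene of chromosome 18 in gene order, with running medians of 15 genes. Chromosome 18 is at -0.48 in SW620 against 0.15 in HCT116 and 0.41 in DLD-1, and the SW620 running median stays below the others over the second part of the chromosome, with SMAD4 marked.

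The region around SMAD4 was also lower. On chromosome 18, 17.1% of the 170 measured protein-coding genes were lower in SW620 and 8.82% higher, against 6.84% and 10.99% over all chromosomes. The chromosome's median log2 ratio was -0.48, the lowest of all in SW620. Genes lower in SW620 alone were 5 of the 170 (2.94%), against 0.377% over all chromosomes. They were SMAD4, RPL17-C18orf32, POLI, CCDC68 and SS18, so this share rests on few genes. POLI left the class under both other scalings, reads of RPL17-C18orf32 cannot be told apart from those of RPL17, and SS18 (chr18:26016253-26091217) lies far from SMAD4. Genes higher in SW620 alone made up 1.18% against 1.27%. The 74 genes from 47 Mb on had a median of -1.03, with 38 lower and 6 higher at 2-fold. The 96 before it had a median of 0.02, with 22 lower and 21 higher, a split chosen after the values were seen.

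Genes near SMAD4 differed in size and direction. MYO5B, a myosin motor, was higher, at 0.0623, 18.5, 43.3 and 10.2 FPKM, and the malic enzyme ME2 and C18orf54 lay slightly above HCEC-1CT, at 2.85, 8.71, 13.4 and 3.50 and at 0.360, 4.66, 1.26 and 1.02 FPKM. ELAC1, an RNA-processing enzyme, was at 1.71, 1.77, 3.88 and 0.817 FPKM and MEX3C, an RNA-binding protein, at 4.84, 21.3, 5.58 and 3.37. POLI, a DNA polymerase of translesion synthesis, was at 9.72, 5.48, 9.03 and 1.55 FPKM and CCDC68 at 9.05, 7.70, 8.74 and 0.133; both are in the class. SMAD4 was further below HCEC-1CT than each of these 4 genes. Chromosome 20 and the X chromosome had the highest medians in SW620, at 0.72 and 0.66. The DNA of these cells was not measured.

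Some other class genes lie within 1 Mb of each other. By that distance, 16 runs of at least 3 class members held 50 of the 312 class genes. Overlapping or antisense genes are counted separately in them. The same count was not made for all measured genes, so closeness beyond that of genes in general is not shown. FGF3 shares its run on chromosome 11 with AP003555.3 and ANO1-AS1. In the same region FGF19, a gut hormone of the FGF family, was at 0, 11.7, 0 and 107 FPKM and ANO1, a chloride channel, at 0.0484, 9.63, 0.424 and 124. FGF4 was listed at 0 in all 4 libraries, and CCND1, the D1 cyclin nearby, was at 83.2, 53.4, 125 and 70.7 FPKM. High levels in SW620 were thus not seen in every neighbour.

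A run on chromosome 16 held LINC02178, AC007493.1, AC007608.1 and AC007608.4, with NKD1 beside it. The long noncoding RNA AC007493.1 stood at 0, 0.00299, 0.0273 and 51.3 FPKM. On chromosome 7, VOPP1 and the pseudogenes AC091812.1 and FKBP9P1 formed a run, with VOPP1 at 17.4, 17.0, 20.98 and 83.2 FPKM. After median-ratio scaling and on the TPM scale VOPP1 and FKBP9P1 were no longer in the class. LANCL2, which lies between VOPP1 and EGFR, was at 2.38, 1.99, 4.19 and 2.96 FPKM. EGFR, the growth factor receptor, was lower in SW620, at 55.2, 38.9, 17.1 and 0.650 FPKM, a log2 ratio of -5.09. FKBP9P1, at 1.08, 0.147, 0.721 and 62.6 FPKM, is a copy of FKBP9, so reads may have been shared with it. RMST, a long noncoding RNA of neural tissue, was at 0, 0.133, 0.1246 and 9.85 FPKM, with RF01967 and RF01963, which are pieces annotated within it.

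Receptors and their ligands outside these runs also differed. EREG and NRG1, ligands of the EGFR family, were lower, at 165, 21.6, 97.8 and 4.17 and at 142, 0.154, 0 and 0.106 FPKM. TGFA, another ligand, and the receptor ERBB3 were higher, at 0, 33.9, 55.0 and 37.4 and at 0.110, 7.65, 88.5 and 38.4 FPKM. Of 15 measured ephrins and Eph receptors, 10 were higher and 1, EFNA5, lower. EPHA2 reached 3.86, 81.9, 29.96 and 314 FPKM, EFNB2 0.242, 20.2, 36.7 and 97.5 and EPHB6 0.159, 6.38, 8.80 and 62.8, and SW620 was the highest line for all 3.

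APC, the scaffold that marks beta-catenin for breakdown, stood at 5.74, 9.61, 8.64 and 6.58 FPKM. Of 25 measured driver genes of colorectal cancer 5 were higher, SOX9, RNF43 and TCF7L2 among them, and 1, SMAD4, lower, with a median of 0.38 against 0.29 over all measured genes. TCF7L2, the main TCF factor of the gut, was at 6.28, 34.7, 26.4 and 30.6 FPKM. Of the immortalisation genes, TERT was at 2.83, 0.611, 1.09 and 0.171 FPKM and CDK4 at 33.1, 26.1, 29.2 and 21.3; neither passed 4-fold, and TERT was highest in HCEC-1CT.

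Over all measured genes, 10.3% were higher and 6.36% lower, with a median log2 ratio of 0.29. Interferon-response genes had 11 of 42 measured members higher and 2 lower. Their median was 0.57 in SW620, -0.01 in HCT116 and -0.08 in DLD-1. BST2 and MX1, antiviral proteins, were in the class, at 0.131, 0.792, 0 and 18.5 and at 0.124, 0.519, 0.979 and 12.8 FPKM. IFITM1, an antiviral membrane protein, was lower, at 61.5, 30.1, 13.2 and 1.63 FPKM. Cell cycle genes were higher in 23 of 50 measured cases and lower in 1, CCND2. The list's median was 1.83 in SW620, below the 2.36 of HCT116 and the 3.48 of DLD-1. CDK1, the kinase of mitosis, stood at 0.355, 18.4, 41.3 and 25.6 FPKM and MKI67 at 0.244, 13.2, 18.9 and 5.23. Of 25 housekeeping genes 1, HPRT1, was higher and 0 were lower. At 2-fold 8 were higher and 1 lower, against 28.7% and 16.4% of all measured genes. Their median of 0.50 lay above the 0.29 over all measured genes.

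Transcripts were compared as shares of their gene's total, which library scaling does not touch. Of 6503 genes with at least 2 transcripts and 5 FPKM or more in both libraries, 345 (5.31%) had another main transcript in SW620 while the HCEC-1CT main transcript lost at least 50 percentage points. In 240 of them both transcripts encode proteins. The 8 largest losses were in PCGF2, GNE, SNORD3A, FTH1P10, PLCB3, FGD4, BLVRA and RSBN1. GNE, the key enzyme of sialic acid synthesis, had 96.5% of its FPKM in GNE-207 in HCEC-1CT and 90.8% in GNE-202 in SW620. BLVRA, biliverdin reductase, went from 93.1% in BLVRA-202 to 98.7% in BLVRA-201. In GNE, DLD-1 had the main transcript of SW620, and in BLVRA HCT116 had it. These shares are estimates by a program that no source used here names.

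Of 5879 genes with 5 FPKM or more in all 4 libraries, 60 (1.02%) had such a switch in SW620 while HCT116 and DLD-1 kept the main transcript of HCEC-1CT. The 8 largest of these losses were in SERP1, ZBED6, LNPK, HYAL2, WRNIP1, CAMSAP2, SELENOT and KANK2. HYAL2, a hyaluronidase, had 89.7%, 81.8%, 83.7% and 5.04% of its FPKM in HYAL2-202 in the usual order of the lines. CAMSAP2, which binds the minus ends of microtubules, had 81.4%, 70.8%, 67.1% and 0% in CAMSAP2-201. E2F3, a factor of the cell cycle, moved from E2F3-202, which encodes 334 residues, to E2F3-201, which encodes 465. E2F3-202 was at 8.95, 5.98, 8.01 and 0.878 FPKM and E2F3-201 at 1.17, 3.93, 2.15 and 5.30.

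**Figure D5:**
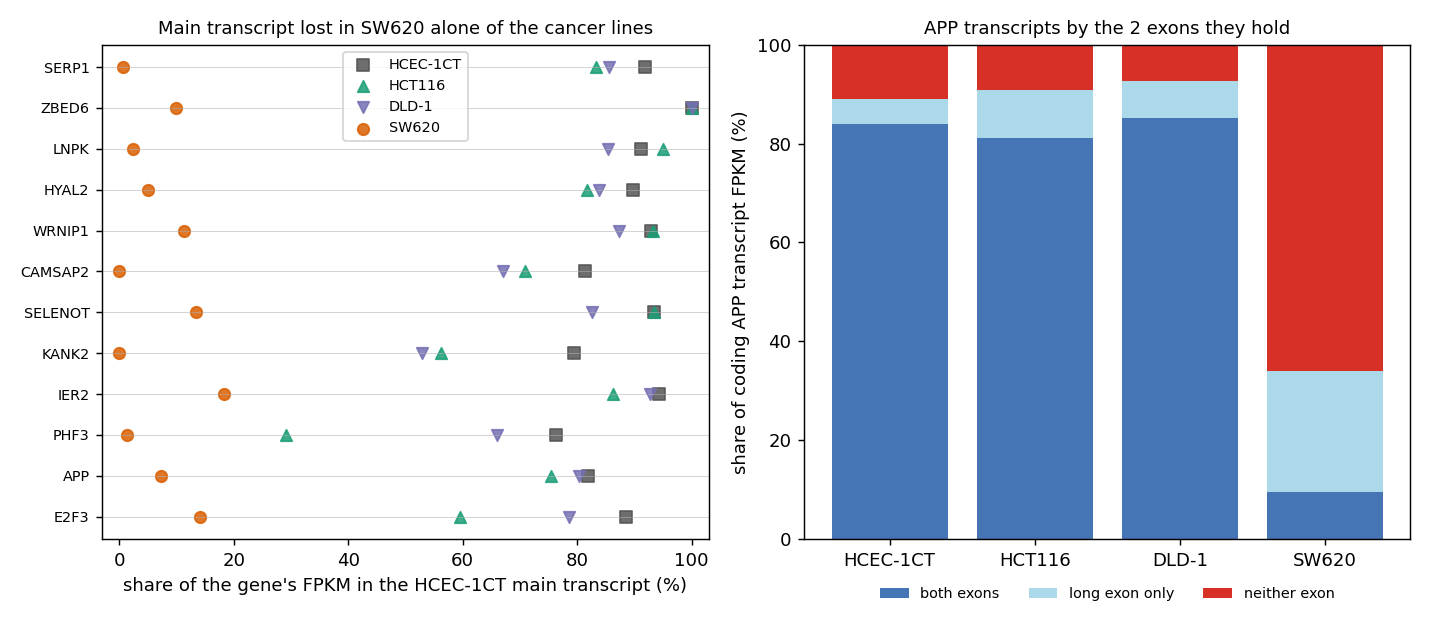
Left, share of a gene's FPKM in the transcript that is the main one in HCEC-1CT, for the 12 genes with the largest loss in SW620 among those whose main transcript is the same in the other 3 lines; right, share of coding APP transcripts by the exons they hold. In SW620 the shares on the left lie between 0% and 18.3%, and 65.9% of APP falls to transcripts with neither exon, against 7.45% to 11.1% in the other lines.

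APP, the precursor of the amyloid peptide, was in the same group and was looked at in more detail after its values were seen. Its gene can include or skip exon 7 of 168 bases, which encodes the Kunitz protease inhibitor domain, and exon 8 of 57 bases. Both exons lie on the minus strand of chromosome 21 (chr21:26000015-26000182 and chr21:25997360-25997416, GRCh38). They are shown because the libraries differ in them.
APP exon 7: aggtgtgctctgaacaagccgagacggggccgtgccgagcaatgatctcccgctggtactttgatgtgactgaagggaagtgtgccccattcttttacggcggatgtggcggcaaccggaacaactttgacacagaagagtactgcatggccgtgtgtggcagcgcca
APP exon 8: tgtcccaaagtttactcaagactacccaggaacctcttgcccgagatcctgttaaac

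APP-201, which has both exons and encodes 770 residues, was at 230.0, 144, 121 and 27.9 FPKM. APP-202, which has neither and encodes 695 residues, was at 30.6, 17.4, 10.6 and 153 FPKM. Over APP transcripts with at least 1000 coding bases, those with both exons made up 83.9%, 81.1%, 85.1% and 9.47%. Those with exon 7 alone made up 5.07%, 9.64%, 7.42% and 24.6%, and those with neither 11.1%, 9.27%, 7.45% and 65.9%. The form without the Kunitz exon is the one best known from neurons.

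CALD1 shows a switch that another cancer line shared. CALD1-202 was at 38.3, 0, 0.179 and 0 FPKM and CALD1-203 at 1.49, 19.9, 0 and 25.5, so the gene's total lay near that of HCEC-1CT in SW620 while its main transcript differed in SW620 and HCT116.

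Just inside the 4-fold limit lay GPR155, NMU and YEATS4 among higher genes and PELI2, PBX3 and AKAP2 among lower ones. Just outside lay RNF223, TMEM144 and SLC22A3, and RAB32, ADCY9 and AK5. GPR155 stood at 1.35, 3.74, 0.831 and 8.42 FPKM and RNF223 at 0.0444, 1.93, 17.1 and 3.18, so the limit divides genes of much the same ratio.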

How the data were processed

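RNA sequencing of spheroids of 4 established human cell lines was used, with 1 library per line and groups taken from the sample titles. FastQC, HISAT2 and genome build hg38 are credited to the submitters' processing notes. No source used here names the program that made the values, its annotation or any use of strand. The authors deposited FPKM per gene and per transcript in 2 tables, and 1 value column per table matches no sample and was not used. Gene types and transcript names came from GENCODE 29, which matched 58275 identifiers.

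From these values log2((SW620 + 1)/(HCEC-1CT + 1)) was computed with Python 3.11.15, pandas 2.3.3 and numpy 2.4.6, with a pseudocount of 1 FPKM, so ratios of low genes are understated. Calls needed 4-fold and 1 FPKM in the higher library. The scripts were tested on simulated data. Without replicates there is no test, SD or p-value, and the spread between cultures is unknown. Depth was estimated from the whole-fragment steps of low values.

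Named protein-coding genes were the 12 per direction with the largest ratio and at least 10 FPKM, and the 15 per direction among genes called in SW620 alone with at least 5 FPKM. Further names were up to 5 noncoding genes per direction by the same measure, up to 6 per direction that went against both other cancer lines, 2 to 8 members of a list with the largest ratios, class members and members against the majority of a list, drivers, the 8 largest transcript losses, and 3 genes on each side of the 4-fold limit. Genes named beside these for their position or role were chosen after their values were seen. The comparison, its gene lists and these rules were chosen with earlier results of these data known. Alternatives were other pseudocounts, scalings, thresholds and filters.

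Overlapping, antisense and near-identical genes, among them the T cell receptor constant genes, histones, S100 genes and the pairs with CD44-AS1 and DDIT4-AS1, are uncertain because counting is not described. Promoter sequences came from RefSeq (GRCh38.p14) and exon sequences from GENCODE 29. Some genes that these rules name are not reported here.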

Additional observations from a re-analysis of the deposited data

Results flagged for a closer look

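Some genes were 4-fold or more apart from HCEC-1CT in SW620 while HCT116 and DLD-1 both lay 2-fold or more the other way, which marks them for a second look. With 1 library per line the difference was not tested, and the 3 ratios share the HCEC-1CT library. Values are in the order HCEC-1CT, HCT116, DLD-1 and SW620.

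Of the genes that were higher in SW620, 9 had both other lines lower. TRBC2, a constant gene of the T cell receptor, had a log2 ratio of 3.92, with 4.22, 0, 0 and 78.2 FPKM. Its near-identical copy TRBC1 had 3.42, with 1.29, 0, 0 and 23.6 FPKM, and reads of the pair may be shared. Of the leukocyte markers, CD3D was at 0, 0, 0 and 0.523 FPKM and CD14 at 9.40, 0.376, 0.409 and 0.101. In SW620 LYZ was at 24.5, CD68 at 16.6 and PTPRC at 0.129 FPKM, while CD3E, MS4A1 and NKG7 were listed at 0. Their part in the levels of TRBC1 and TRBC2 was not tested. HIST1H3C, a replication histone, had a log2 ratio of 3.51, with 5.05, 0, 0 and 67.9 FPKM. MILR1, a receptor of mast cells, had 2.80, with 2.93, 0.757, 0.552 and 26.5 FPKM. CLDN11, a claudin of myelin and testis, had 2.75, with 4.76, 0.0512, 0 and 37.7 FPKM. SERPINF1, a secreted serpin, had 2.67, with 4.73, 0.441, 0.137 and 35.6 FPKM.

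Of the genes that were lower, 4 had both other lines higher. ID3, a repressor that BMP signals switch on, had a log2 ratio of -3.65, with 27.5, 78.5, 164 and 1.28 FPKM. NOTCH3, a receptor, had -2.08, with 4.31, 32.3, 15.3 and 0.257 FPKM. The pseudogenes PSPHP1 and RPS2P5 had -2.74 and -2.34, and PSPHP1 stood at 5.66, 22.2, 16.7 and 0 FPKM. Its parent gene PSPH was at 3.15, 5.50, 12.5 and 56.8 FPKM, so the copy and the parent differed in direction in SW620. In HCT116 and DLD-1 both lay above HCEC-1CT. Reads may have been shared between PSPHP1 and PSPH, which was not tested.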

How the results depend on the processing

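No paired analysis was possible because each line has 1 library. For the same reason no replicate could be left out. Counts are given as higher, lower, higher in SW620 alone and lower in SW620 alone, against 1665, 1023, 255 and 57. A pseudocount of 0.1 gave 3055, 1880, 291 and 113, and one of 5 gave 572, 410, 128 and 14. The TPM scale gave 2059, 1664, 353 and 86, and median-ratio scaling 1479, 1226, 261 and 55. A 2-fold limit gave 4623, 2637, 1200 and 511, and an 8-fold limit 697, 483, 93 and 16. Protein-coding genes alone gave 1398, 870, 162 and 48. With the other lines only under 4-fold, 612 and 198 genes were in the class, and with SW620 also 4-fold from both, 180 and 30. Transcript switches, 345 and 60 in SW620 alone, were 846 and 134 at a loss of 30 points, 217 and 34 at a total of 10 FPKM and 625 and 115 at 1 FPKM. Of calls, 61.9% were higher, against 54.7% after median-ratio scaling and 55.3% on the TPM scale. Median-ratio scaling lowered the SW620 ratio by a log2 shift of -0.29. Of the 15 named higher genes in the class, 4 stayed in it with a pseudocount of 0.1, and FOXA2, INPP5D and TFF2 left it on the TPM scale. Of the 15 lower, 7 stayed with a pseudocount of 5. The median of the ABC transporter list, 0.17, was -0.10 after median-ratio scaling and -0.08 on the TPM scale, and that of the MYC network list, 0.25, was -0.05 and -0.03. The absence of replicates limits every value.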

Other observations

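Genes not annotated as protein coding made up 93 of the 255 genes higher in SW620 alone. XLOC_013448, which is not in GENCODE 29, stood at 0, 0, 0 and 47.7 FPKM, and LINC02178 at 0, 0.881, 0.201 and 28.5 FPKM. Among the lower ones, NUTM2A-AS1 was at 15.9, 9.78, 18.9 and 0.557 FPKM and HERC2P3 at 10.4, 10.1, 11.6 and 0.697 FPKM.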
